A study of Mus musculus with 2 samples.

Results

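Mucl1, Ehf and Csf1 are 3 of the 18049 genes listed in both expression tables, and were chosen by their mRNA levels, as genes near the top in CD301b-high type 2 conventional dendritic cells (cDC2s) against other dendritic cells (DCs). The difference that chose them is therefore given as a description and supports nothing. CITEseq, which reads mRNA and DNA-tagged antibodies in the same cell, was run on sorted MHCII-high CD11c+ B220- lymph node cells of B6 mice. One library came from naive, unimmunized mice and the other from mice that received 5 µg ovalbumin (OVA) plus 50 µg papain, a protease allergen, 1 day earlier. Each condition is 1 library. No replicate error exists, no test was made, and the 95% intervals given cover counting error only. By the methods the papain cells came from popliteal nodes and the naive cells from pooled skin-draining nodes, whereas the labels do not separate the libraries by node, so immunization and lymph node site cannot be told apart. The number of mice behind a library is not given in the sources used here.

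The authors' antibody-based class of each cell was used: CD301b-high, CD301b-intermediate and CD301b-low cDC2s, type 1 conventional DCs (cDC1s) and Langerhans cells (LCs). Expression and a class were found for 3042 naive cells, of which 2024 were cDC2s, and for 7306 papain cells, of which 6190 were cDC2s. The median depth was 13764 unique mRNA molecules (UMIs) per naive cell and 14738 per papain cell, and 2 cell barcodes occurred in both libraries. Not every marker followed the classes. In the naive library Sirpa (CD172a) was at 113, 92.3 and 82.8 counts per 1000000 (CPM) in CD301b-high, -intermediate and -low cDC2s and at 10.7 CPM in cDC1s, Xcr1 was at 16.9 CPM in cDC1s and 6.94 CPM in CD301b-low cDC2s, and Cd207 (langerin) was at 45.7 CPM in LCs and 9.16 CPM in cDC1s. Gpr171, listed as an LC marker, was at 4.52 CPM in naive LCs and 24.1 CPM in CD301b-low cDC2s. CPM here are the UMIs of a gene summed over a group, per 1000000 UMIs of that group. Mgl2, which encodes CD301b, was at 56.1 CPM in naive CD301b-high cDC2s, 59.1 CPM in the intermediate and 15.2 CPM in the low class. After papain, Mgl2 was at 1.21, 0.476 and 0.831 CPM in the same order, so the classes there rest on the antibody and not on Mgl2 mRNA. The cDC2 marker genes Cd209a and Clec10a, at 32.2 to 47.8 and 8.76 to 27.9 CPM in naive cDC2 classes, were at most at 1.38 and 0.166 CPM in papain ones, while Sirpa was at 52.4 to 80.8 CPM.

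The CD301b antibody carried the tag below, and its reads are what the CD301b value counts. It is shown because the classes and the ordering of the cDC2s used below rest on it.
CD301b antibody tag: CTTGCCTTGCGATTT

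Csf1 encodes macrophage colony-stimulating factor, a secreted and membrane-bound growth factor that acts on monocytes, macrophages and their precursors through the receptor encoded by Csf1r. Ehf encodes a transcription factor of the ETS family, which binds DNA at a GGAA core and is best known from epithelia. Mucl1 is named for the mucin-like protein of its human counterpart, a small secreted glycoprotein of glandular epithelia. On GRCm38.p6, the assembly equivalent to the mm10 build of the files, RefSeq places Mucl1 at chr15:103751923-103755498 and annotates it as a transcribed pseudogene. The same annotation places the protein-coding genes Ehf at chr2:103263431-103303275 and Csf1 at chr3:107741048-107760469.

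Csf1 was the only one of the 3 with a promoter in the sequence table used. Its 250 bases before the start site, at chr3:107760470-107760719 on the minus strand of GRCm38.p6 (RefSeq), are printed so that the motif of the ETS family, to which Ehf belongs, can be looked for in them. Capitals mark the single match found among the patterns searched.
Csf1 promoter: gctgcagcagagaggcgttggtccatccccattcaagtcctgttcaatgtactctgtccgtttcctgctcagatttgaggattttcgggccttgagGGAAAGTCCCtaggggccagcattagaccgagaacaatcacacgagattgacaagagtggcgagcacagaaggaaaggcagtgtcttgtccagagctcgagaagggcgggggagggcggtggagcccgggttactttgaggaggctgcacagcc
Both strands were searched. The kappaB pattern GGGNNNTTCC matched once, on the strand opposite to the printed letters at positions -154 to -145 from the start site, and 4.65% of 32851 promoter windows of the same length held it. The ETS patterns CGGAAG and AGGAAG, which 13.6% and 29.5% of promoter windows held, had no match. The bare GGAA core was not among the patterns searched, and it does occur in the printed letters, also within the capitals. Neither TGANTCA for AP-1 (6.75% of windows) nor TTCNNNGAA for STAT (7.02%) had one. These are matches of letters and not binding sites.

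Ehf followed the CD301b classes in both libraries. In the naive library it was at 232 CPM (95% interval 223 to 241) in CD301b-high cDC2s, 163 CPM in the intermediate class, 70.9 CPM in the low class, 20.9 CPM in cDC1s and 22.2 CPM in LCs. The papain levels in the same order were 132 CPM (128 to 135), 92.2, 39.6, 26.4 and 32.8 CPM. The order among cDC2s was the same in both libraries, and the neighbouring cDC2 classes had intervals that did not overlap. cDC1s and LCs were not separated beyond counting error, with a log2 ratio of -0.09 (-0.43 to 0.25) among naive cells and -0.31 (-0.67 to 0.02) among papain cells. At least 1 Ehf UMI was found in 68.2% of naive CD301b-high cDC2s (64.6 to 71.6), at a median depth of 15167 UMIs, and in 8% of the cells of papain mRNA cluster 7, the lowest cDC2 cluster, at a median depth of 14281 UMIs. After thinning each cell to 8392 UMIs the share in naive CD301b-high cDC2s was 59.8%, without the 55 cells that were shallower, and that in naive CD301b-low cDC2s was 28.4%, without 87.

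Csf1 did not have CD301b-high cDC2s as its highest class in the naive library. Naive cDC1s held 56.9 CPM (52.2 to 61.9), CD301b-high cDC2s 42.6 (38.9 to 46.6), the intermediate class 41.1, the low class 22.3 and LCs 17.5 CPM. The high and intermediate classes were not separated there (log2 ratio 0.05, -0.14 to 0.24), and neither were the low class and LCs (0.35, -0.01 to 0.72). After papain, Csf1 was at 89.0 CPM (86.4 to 91.6) in CD301b-high cDC2s, 68.0 in the intermediate and 27.4 in the low class, 42.6 in cDC1s and 26.4 in LCs. CD301b-high cDC2s thus stood below cDC1s in the naive library (log2 ratio -0.42, -0.60 to -0.24) and above them in the papain library (1.06, 0.81 to 1.32). Of CD301b-high cDC2s, 21.2% in the naive library and 36.7% after papain held a Csf1 UMI, at median depths of 15167 and 16181 UMIs, as did 4% of the cells of papain cluster 7 at a median depth of 14281 UMIs. Thinned to equal depth, the shares in CD301b-high cDC2s were 16.2% and 28.2%.

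Mucl1 was at 62.5 CPM in naive CD301b-high cDC2s, 28.1 CPM in the intermediate and 35.8 CPM in the low class, 0.527 CPM in cDC1s and 29.2 CPM in LCs. After papain it was at 135, 92.2, 25.2, 13 and 28.6 CPM in the same order. The counting intervals of these values, such as 58.0 to 67.3 CPM for the naive CD301b-high class, take each UMI as independent, which Mucl1 UMIs were not, as described next. The 5 UMIs in naive cDC1s lay in 5 different cells, or 0.865% of 578 cells at a median depth of 15806.5 UMIs. In papain mRNA cluster 2, 23 UMIs lay in 22 cDC2s, or 1.70% of its cells. Such single UMIs cannot be told from background. No share was fixed as background, and the shares and joint detection below count every cell with a UMI. Of the 40 UMIs in papain cDC1s, 35 lay in 1 cell.

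**Figure D1:**
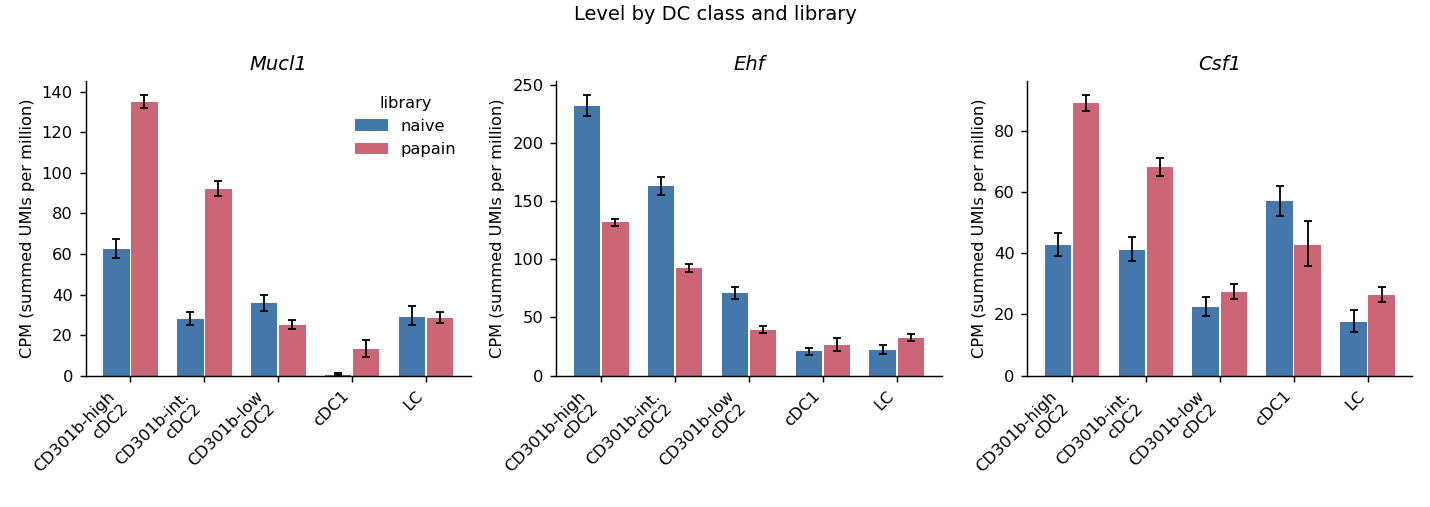
Level of Mucl1, Ehf and Csf1 by DC class, in CPM of summed UMIs on axes that start at 0, with 1 bar per library and class and 95% Poisson intervals that cover counting error only. Ehf descends with the CD301b class in both libraries, whereas naive cDC1s, at 56.9 CPM, are the highest naive class for Csf1.

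Mucl1 came from very few cells. In the naive library 55 of 2024 cDC2s had a Mucl1 UMI, 24 of them had a single one, and 3 cells held 50% of the 1334 UMIs. Among papain cells 490 of 6190 cDC2s had a UMI, 176 of them had a single one, and 42 cells held 50% of the 9998 UMIs. The richest naive cell held 367 Mucl1 UMIs and the richest papain cell 439. The top 1% of cDC2s held 95.8% of naive and 60.9% of papain Mucl1 UMIs, against medians of 7.99% and 6.81% over the genes with at least 20 CPM in cDC2s. A higher share was found for none of 4891 such genes in naive and 1 of 4916 in papain cells. Ehf was spread much more widely, with 9.77% and 11.5% of its UMIs in the top 1% of cells, and Csf1 lay between them with 22.8% and 17.5%. Ehf was found in 1075 and 2617 cDC2s, and no cDC2 held more than 37 Ehf or 48 Csf1 UMIs.

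**Figure D2:**
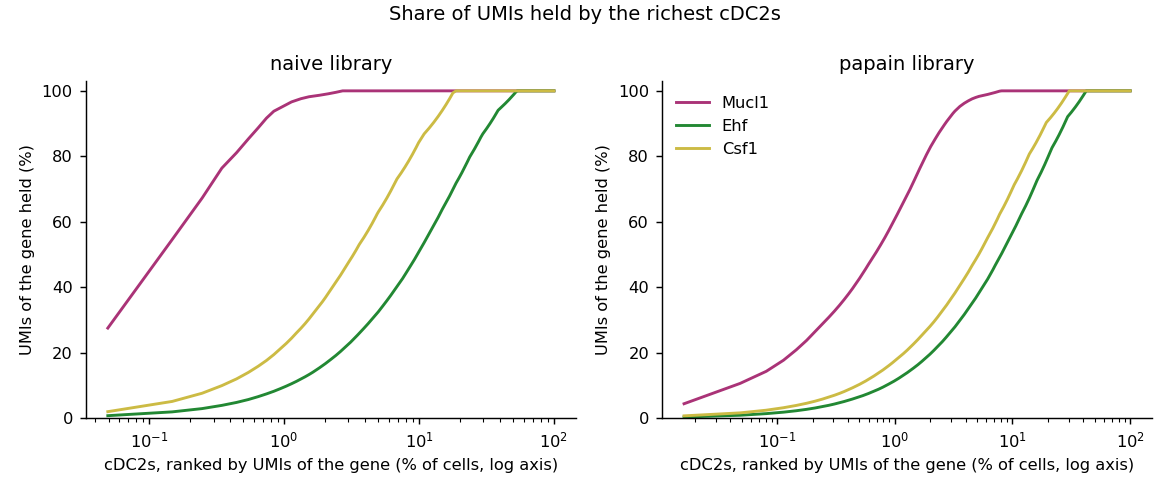
Share of the UMIs of each gene (vertical axis, %) held by the cDC2s richest in it (horizontal axis, % of cells, log scale), with 1 line per gene and 1 panel per library. The Mucl1 line reaches 95.8% at the top 1% of naive cDC2s, where Ehf reaches 9.77%.

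Counted as cells, Mucl1 gave a plainer picture than its CPM. At least 10 Mucl1 UMIs were found in 8 of 707 naive CD301b-high cDC2s (1.13%, 0.490 to 2.22), 6 of 659 intermediate (0.910%) and 3 of 658 low cells (0.456%, 0.0941 to 1.33), and these intervals overlap. After papain such cells were 126 of 2893 CD301b-high (4.36%, 3.64 to 5.16), 54 of 1827 intermediate (2.96%, 2.23 to 3.84) and 13 of 1470 low cells (0.884%, 0.472 to 1.51), where the low class lay apart from the other two. No naive cDC1 of 578 reached 10 UMIs (exact interval up to 0.636%), and 1 of 235 papain cDC1s did. LCs reached it in 2 of 440 naive and 14 of 881 papain cells.

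Against all other DCs of the same library, the contrast that chose the genes, the log2 ratios of CD301b-high cDC2s were 1.46 for Mucl1, 1.59 for Ehf and 0.21 for Csf1 in the naive library, and 1.32, 1.14 and 0.98 in the papain library. Of the genes that reached 10 CPM in either group, 4% of 7383 in naive and 1.21% of 7097 in papain cells were higher in CD301b-high cDC2s by 1.5-fold or more, and 5.88% and 1.61% were lower. All 3 members were among the higher ones in papain cells, and Mucl1 and Ehf, but not Csf1, in naive cells. By rank among those genes (1 CPM added), Mucl1, Ehf and Csf1 were at places 5, 3 and 1596 in the naive and 1, 3 and 6 in the papain library. Without the 5 cells richest in Mucl1 in each group, its naive log2 ratio was 0.62 in place of 1.46. Against the other cDC2s only, the naive ratios were 0.98, 0.96 and 0.40. T, B and NK cell genes summed in the papain library to 13.1 CPM in CD301b-high cDC2s and 29.1 CPM in other DCs, and in the naive library to 24.8 and 106 CPM, where all 5 genes of that list with at least 10 CPM were lower in CD301b-high cDC2s. Without cells that held a Cd3e or Trac UMI, the Mucl1 ratios were 1.73 and 1.19.

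Along the CD301b antibody value, a readout of protein, Ehf increased in nearly every step. The classes behind the choice of the genes rest on this same value, so the course is a description. When the cDC2s of a library were divided by that value into 10 bins of equal size, naive Ehf was at 45 CPM in the lowest and 286 CPM in the highest bin (6.35-fold, 5.30 to 7.66), with 8 of 9 steps upward. Papain Ehf was at 24.4 CPM in the lowest and 133 CPM in the highest bin (5.46-fold, 4.66 to 6.44), again with 8 of 9 steps upward and the highest value, 146 CPM, in the ninth bin. In each of the 10 bins the papain value was below the naive one. Csf1 was at 12.9 CPM in the lowest and 46.9 CPM in the highest naive bin (3.64-fold, 2.54 to 5.31), with its maximum of 55.5 CPM in the sixth. In papain cells it was at 17.4 and 82.7 CPM (4.74-fold, 3.92 to 5.78), with its maximum of 99.2 CPM in the eighth, so that most of the Csf1 increase lay in the lower bins.

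Mucl1 had no ordered course in the naive library, with 0 UMIs in the first and the seventh bin, where 0 of 203 cells held a UMI (exact interval up to 1.801% of cells), 116 CPM in the second and 141 CPM in the ninth. The share of papain cDC2s with a Mucl1 UMI was 2.42% in the lowest bin and between 8.24% and 10.8% from the fifth bin on, and its CPM were 9.86 in the lowest, 170.0 in the sixth and 121 in the highest bin. Median depth also differed between bins, from 12212.5 to 15633 UMIs for naive and from 10536 to 16279 UMIs for papain cells, and its part in these values was not tested. After thinning, the papain Mucl1 share was 1.48% in the lowest and 7.10% in the highest bin, and the Ehf share 11.5% and 43.2%.

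**Figure D3:**
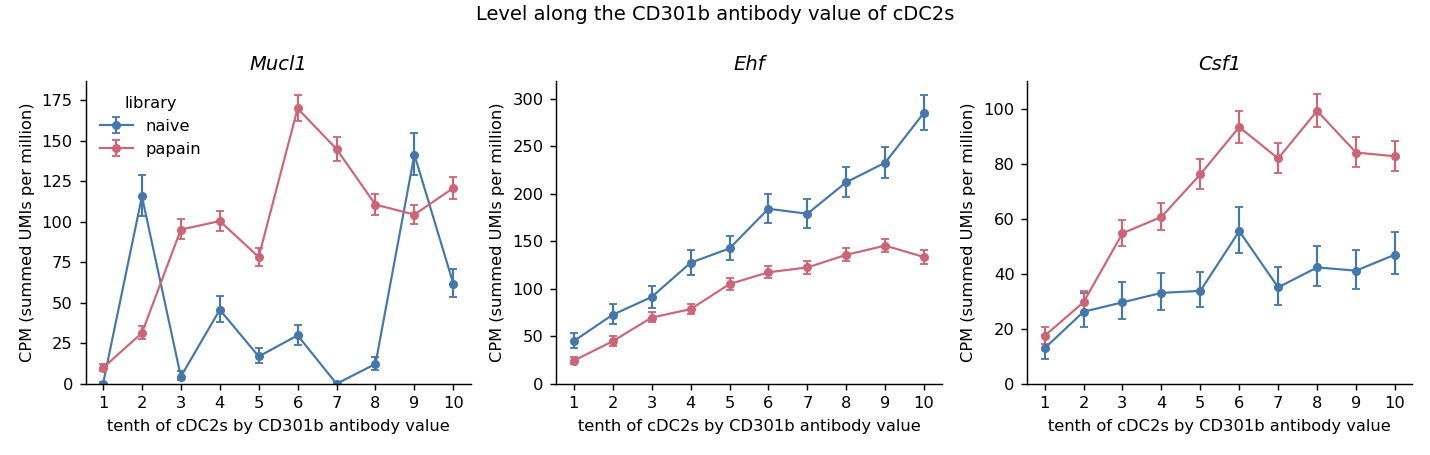
CPM of each gene (vertical axis, from 0) in 10 equal bins of the cDC2s of a library ordered by CD301b antibody value (horizontal axis, 1 lowest), with 95% Poisson intervals for counting error. Ehf climbs from 45 to 286 CPM in the naive library, Csf1 levels off in the upper bins, and naive Mucl1 jumps between 0 and 141 CPM.

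The 3 genes also differed between the authors' mRNA clusters. These clusters were made from mRNA, the members included, so their levels in them are a description. Papain clusters 1 and 2 held about the same share of CD301b-high cells, 61.9% of 1430 and 67.2% of 1294 cDC2s. Mucl1 was at 279 CPM in cluster 1 and 1.19 CPM in cluster 2, Ehf at 183 and 50.6 CPM, and Csf1 at 106 and 34.9 CPM. The naive clusters 1 and 2, with 53.4% and 47.7% CD301b-high cells, held Mucl1 at 109 and 0.321 CPM, Ehf at 225 and 144 CPM, and Csf1 at 51.5 and 32.6 CPM. Cluster numbers were assigned by the authors within each library and are not known to match between libraries. They are also not known to match the numbered cDC2 mRNA subclusters that the paper describes across naive and immunized mice.

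The other clusters differed from gene to gene. Papain cluster 3 held Csf1 at 101 CPM but Mucl1 at 4.59 and Ehf at 76.0 CPM, so Csf1 there stood near its level in cluster 1 while the other 2 did not. Papain cluster 5, the deepest with a median of 30020.5 UMIs per cell, held Mucl1 at 107, Ehf at 130.3 and Csf1 at 87.4 CPM, and papain cluster 7 was the lowest for Ehf (7.52 CPM) and Csf1 (3.67 CPM). In the naive library Csf1 and Ehf were lowest in cluster 5, at 10.4 and 66.3 CPM. That cluster was also the highest naive cluster for Mgl2, at 276 CPM with an Mgl2 UMI in 43.1% of its 246 cDC2s, while 15.9% of them were CD301b-high. Mgl2 was at 1.88 CPM in naive cluster 1, where Ehf, Csf1 and the CD301b-high share were high, so Mgl2 mRNA and the CD301b antibody did not mark the same naive clusters. Naive cluster 6 had the highest naive Mucl1 value, 221 CPM, but it came from 55 shallow cells, of which 1 held 63 UMIs.

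**Figure D4:**
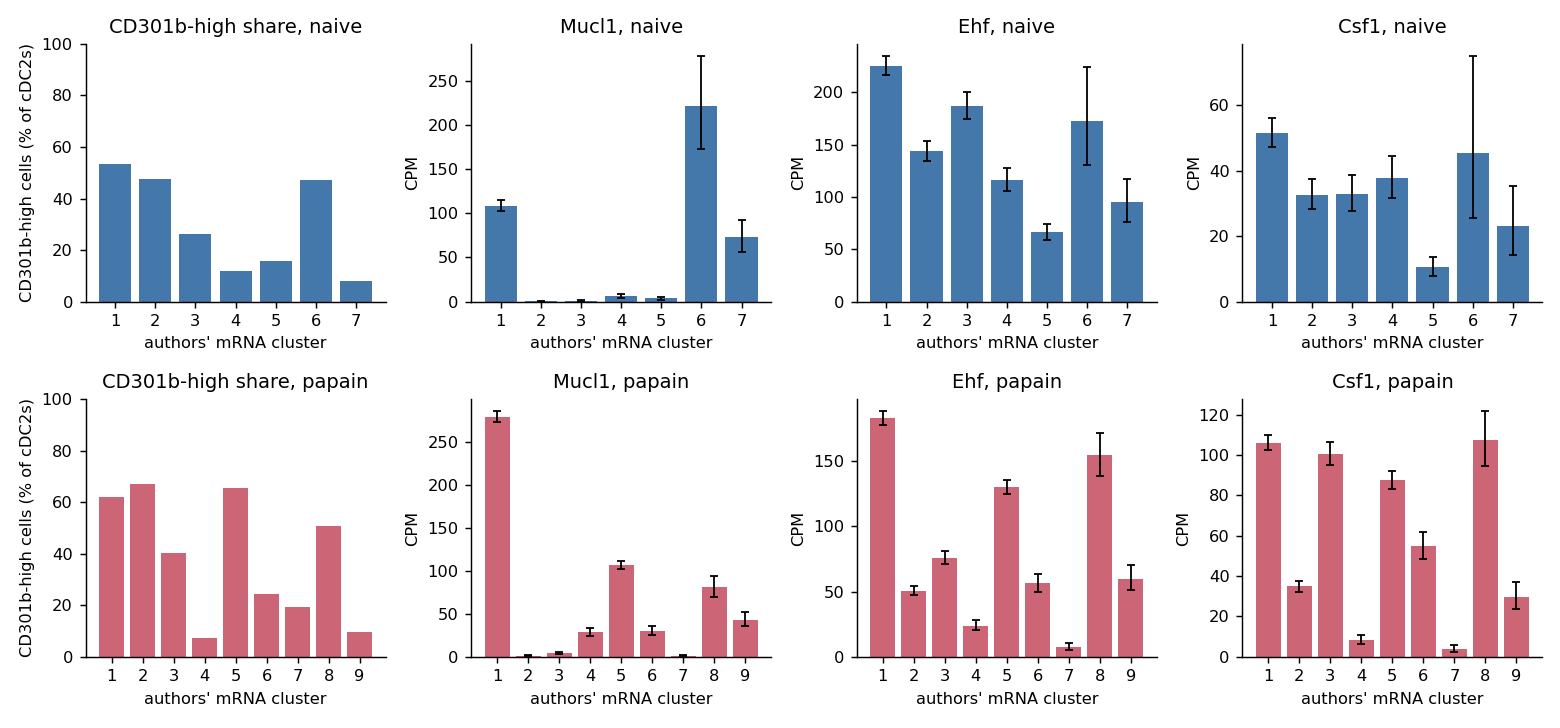
Share of CD301b-high cells (left, %) and CPM of each gene in the authors' mRNA clusters of at least 50 cDC2s, naive above and papain below, with 95% Poisson intervals for counting error and all axes from 0. Papain clusters 1 and 2 have similar CD301b-high shares, 61.9% and 67.2%, but Mucl1 at 279 and 1.19 CPM.

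Within clusters, Ehf also differed between CD301b-high and CD301b-low cDC2s. These cells are parts of the groups in the contrast that chose Ehf, so the direction is a description and supports nothing. The share of all genes that did the same was not computed. Ehf was higher in the CD301b-high cells of 5 of 5 naive and 9 of 9 papain clusters with at least 20 cells of both classes, with intervals above 0 in 5 and 6 of them and mean log2 ratios of 1.496 and 0.97, against 1.71 and 1.73 over all cDC2s. Csf1 was higher in 4 of 5 naive and 9 of 9 papain clusters, with mean log2 ratios of 0.59 and 1.18 against 0.93 and 1.70. Mucl1 could be compared in 1 naive cluster, where it was lower in CD301b-high cells (log2 ratio -0.53 in cluster 1, against 0.81 over all cDC2s), and in 4 papain clusters, where it was higher in 3 (mean 0.46 against 2.42). In papain cluster 1 the Mucl1 ratio was 1.32 (1.13 to 1.52) and in papain cluster 8 it was -1.76 (-2.22 to -1.30). These intervals take UMIs as independent, which Mucl1 UMIs were not. Papain cluster 8 had 5 cDC2s with at least 10 Mucl1 UMIs, and its 58 CD301b-low cells held 80 UMIs. In naive cluster 1 the 70 CD301b-low cells held 242 UMIs, of which 234 lay in 1 cell. The Mucl1 signs within clusters thus rest on few cells. Between CD301b-high and CD301b-low cDC2s, 4.66% of 7475 naive and 3.75% of 7171 papain genes were higher by 1.5-fold or more, and 8.59% and 3.6% were lower. All 3 members were among the higher genes in both libraries. CD301b-low cDC2s were part of the other DCs in the contrast that chose the members, so this is a description and supports nothing.

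In papain cDC2s, pairs of the 3 genes were found in the same cell more often than UMIs spread in proportion to depth would give. A Mucl1 and an Ehf UMI were found together in 352 papain cDC2s, 1.52 times the number expected if UMIs were spread in proportion to depth (1.37 to 1.69), and in 44 naive cDC2s, 1.36 times that number (0.990 to 1.83). For Ehf and Csf1 the ratios were 1.27 (1.197 to 1.35; 1105 cells) and 1.06 (0.927 to 1.21; 227 cells), and for Mucl1 and Csf1 1.25 (1.09 to 1.43; 211 cells) and 1.21 (0.662 to 2.03; 14 cells). The 3 naive intervals thus include 1. An Ehf UMI was found in 71.8% of papain cDC2s with a Mucl1 UMI and in 39.7% of those without one.

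Mucl1-rich cells lay mostly in a single cluster of each library. Of the cDC2s with at least 10 Mucl1 UMIs, 14 of 17 naive cells were in naive cluster 1 and 135 of 193 papain cells in papain cluster 1, which share a number but are not known to match, and a further 41 papain cells were in papain cluster 5. Within papain cluster 1, the 135 rich cells had a median depth of 18105 UMIs and the 1155 cells without a Mucl1 UMI one of 18347. CD301b-high cells made up 65.9% of the rich and 61.1% of the other cells. Ehf was at 251 CPM in the rich and 167 CPM in the other cells, while Csf1 was at 74.5 and 113 CPM, so the pair did not go the same way. In the 14 rich and 497 other cells of naive cluster 1, Ehf was at 392 and 219 CPM and Csf1 at 48.3 and 50.8 CPM.

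Genes of other cell types were summed in the Mucl1-rich cells. A Cd3e or Trac UMI, a sign of T cell RNA, was found in 2 of the 17 naive and 8 of the 193 papain rich cDC2s. Of 20 epithelial genes listed, 8 had values, and Krt5, Krt14, Krt18 and Krt19 were not among them. Epithelial RNA could therefore be looked for only in part. The 8 summed to 6.18 CPM in the papain rich cells and 10.8 CPM in the other cells of papain cluster 1. Krt8 and Cdh1 had no UMI in the rich cells. The 10 macrophage genes with values, of 12 listed, summed to 86.1 and 83.0 CPM. The 4 stromal and endothelial genes with values, of 10 listed, summed to 3.09 and 1.78 CPM, and the 12 T, B and NK cell genes to 4.63 and 9.97 CPM. In the naive rich and other cells of naive cluster 1 the epithelial genes summed to 12.1 and 11.5 CPM, the macrophage genes to 96.6 and 65.4 CPM, the stromal and endothelial genes to 0 and 3.07 CPM, and the T, B and NK cell genes to 12.1 and 16.6 CPM, in 14 rich cells. Among genes of at least 50 CPM, chosen after their values were seen and with 10 CPM added, Tnip3, an inhibitor of NF-kappaB signalling, stood highest in the papain rich cells at 97.3 CPM against 27.6 CPM, and at 184 against 83.4 CPM in naive cells. Mpeg1, which encodes perforin-2, was at 54.8 and 21.9 CPM in papain and at 57.3 and 40.2 CPM in naive cells. Of the 10 genes that stood highest in the papain rich cells, 8 were also higher, by any ratio above 1, in the 14 naive rich cells. Hspa1b and Mfge8 were lower there. Lilr4b, 1 of the 8, was at 72.4 against 69.8 CPM in naive cells. The share of all 2749 genes of at least 50 CPM that were higher in the naive rich cells was not computed. The count is therefore not read as a result. Prnp was lower in the rich cells of both libraries, at 22.8 against 58.5 CPM and at 9.05 against 70.6 CPM. Serpinb9b, which stood lowest in the papain rich cells, was not lower in the naive ones.

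Between the libraries, Ehf went one way and Csf1 and Mucl1 the other in CD301b-high cDC2s. Ehf was lower in papain cells by a log2 ratio of -0.82 (-0.88 to -0.75), and by -0.82 and -0.84 in the intermediate and low classes. In LCs it was higher by 0.56 (0.27 to 0.86), and in cDC1s the ratio was 0.34 (-0.05 to 0.72). Csf1 was higher in papain CD301b-high cDC2s by 1.06 (0.93 to 1.199), by 0.73 in the intermediate and 0.30 in the low class and by 0.59 in LCs, but was lower in cDC1s (-0.42, -0.70 to -0.14). The sizes in LCs depended on the summary. As a mean over cells, Csf1 was at 19.8 CPM in naive and 22.7 CPM in papain LCs, and Ehf at 11.9 and 23.1 CPM. Median depths of these LCs were 10767.5 and 18290 UMIs. In CD301b-high cDC2s 9.41% of 7226 genes were higher and 7.96% lower in papain cells by 1.5-fold or more, and the median log2 ratio of these genes was 0.09. Relative to that median the Ehf ratio was -0.91.

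The Mucl1 ratio between libraries depended on single cells. It was 1.11 (1.00 to 1.22) in CD301b-high, 1.72 in CD301b-intermediate and -0.50 in CD301b-low cDC2s, and these intervals take UMIs as independent. Without the 5 richest cells of each library it was 3.64 in CD301b-high and 3.86 in CD301b-intermediate cDC2s. The CD301b-low levels were then 0.328 CPM in naive and 12.1 CPM in papain cells. Far fewer naive cells held a Mucl1 UMI, such as 8 against 44 CD301b-low cells and 8 against 49 LCs. Leaving out 5 cells of each therefore took a larger part of the naive UMIs, and no direction is read from these values. Without cells that held a Cd3e or Trac UMI the intermediate ratio was 2.96, as the naive level was then 12.4 in place of 28.1 CPM. By cells, 1.13% of naive and 4.36% of papain CD301b-high cDC2s held at least 10 Mucl1 UMIs, with intervals that did not overlap, and 0.456% and 0.884% of CD301b-low cDC2s did, with intervals that overlapped. In LCs the ratio was -0.03 (-0.29 to 0.24), but 0.76 as a mean over cells, and without the 5 richest cells of each library the levels were 0.577 CPM in naive and 12.04 CPM in papain LCs. A Mucl1 UMI was found in 1.82% of naive LCs and 5.56% of papain LCs, at median depths of 10767.5 and 18290 UMIs.

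Among the colony-stimulating factors and their receptors, 9 of 13 listed genes were in the tables. Csf1 was the only one of the 5 papain genes with at least 10 CPM that was 1.5-fold or more above other DCs, against 1.21% of all 7097 genes. As Csf1 was chosen by this contrast, the count says nothing about the list. The median log2 ratio of the 5 was 0.08 against -0.001 for all genes. In the naive library 0 of 8 were above and 1, Kit (the stem cell factor receptor), was below, at 3.85 against 13.8 CPM. Of all 7383 genes 4% were above and 5.88% below. The median of the list was 0.15 against -0.02. The receptor gene Csf1r was at 18.7 CPM in naive CD301b-high and 26.6 CPM in naive CD301b-low cDC2s, and at 3.64 CPM in papain CD301b-high cDC2s. Csf1 and Csf1r thus differed in opposite directions between the libraries in CD301b-high cDC2s, with log2 ratios of 1.06 and -2.36. Csf2ra, the GM-CSF receptor alpha chain, was at 134 and 96.8 CPM and Flt3, the receptor of a DC growth factor, at 161 and 202 CPM in naive and papain CD301b-high cDC2s. Of 12 macrophage genes, 10 were in the tables, and Lyz2 was at 552 and 13.7 CPM there. Against other DCs, Cd14 was higher, at 28.2 against 16.7 CPM, and C1qa lower, at 0.525 against 10.6 CPM, in naive cells, and Lyz2 was lower in papain cells, at 13.7 against 34.3 CPM. Of 20 epithelial genes listed 8 had values, and only Epcam, also a marker of LCs, had at least 10 CPM. It was lower, at 6.04 against 31.2 CPM and 4.79 against 45.3 CPM. None of the 4 stromal or endothelial genes with values, of 10 listed, reached 10 CPM.

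Of 25 ETS transcription factor genes, 20 were in the tables. Ehf and Spic were the 2 that stood 1.5-fold or more above other DCs, of 14 naive and 13 papain genes with at least 10 CPM. Of all 7383 naive and 7097 papain genes, 4% and 1.21% did, and Ehf was chosen by this contrast. The medians of the list were 0.17 and 0.07. Spic, known from red pulp macrophages of the spleen, was at 34.8 CPM in naive CD301b-high cDC2s and 16.0 CPM in other DCs, and at 95.0 and 48.6 CPM in papain cells. Between the libraries Spic was higher in papain CD301b-high cDC2s (log2 ratio 1.45) and Ehf lower. Etv3 was at 1292 and 828 CPM and Ets2 at 124 and 46.1 CPM in naive and papain CD301b-high cDC2s, so of 13 ETS genes with at least 10 CPM, 3 (Ehf, Ets2 and Etv3) were lower by 1.5-fold or more and 1 (Spic) higher, against 7.96% and 9.41% of all 7226 genes. Spi1, which encodes PU.1, was at 263 and 298 CPM. Ets1 was lower in naive CD301b-high cDC2s than in other DCs, at 7.88 against 29.4 CPM.

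Of 34 mucin and mucin-type O-glycan genes, 20 were in the tables. In papain cells Mucl1, which was chosen by this contrast, alone of 11 with at least 10 CPM stood 1.5-fold or more above other DCs. Of all 7097 genes 1.21% did, and the list median was -0.02. In naive cells Mucl1, Galnt10 and St3gal1 did, of 10, and Cd164 and Gcnt2 stood below, against 4% and 5.88% of all 7383 genes, with a list median of 0.14 against -0.02 for all genes. St3gal1, a sialyltransferase of O-glycans, was at 123 against 67.3 CPM in naive and 107 against 98.9 CPM in papain cells. Among 10 cycling genes Mki67 was higher in CD301b-high cDC2s than in other DCs, at 72.2 against 36.8 CPM in naive and 117 against 57.6 CPM in papain cells, while Top2a was at 6.39 against 15.6 CPM in naive cells.

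Over the 10 groups of class and library, the genes whose log2(CPM + 1) followed each member most closely were named from 6048 genes with at least 20 CPM in a group. The groups share libraries and differ in depth, and the correlations are a description. For Ehf these were Nfya (Pearson r 0.986), Rnf19b (0.969), Arhgef2 (0.965), Hnrnph2 (0.964) and Adam17 (0.962). For Csf1 they were Dstn (0.959), Sidt2 (0.928), Ube2l3 (0.915), Ggnbp2 (0.903) and Itpk1 (0.9003), and for Mucl1 Tbc1d9b (0.977), Dennd6a (0.974), Crk (0.973), Naip2 (0.958) and Il13ra1 (0.946). The range of some was small: Arhgef2 lay between 75.6 and 95.7 CPM, and Tbc1d9b between 14.96 and 22.8 CPM. Among the members themselves, r over the 10 groups was 0.67 for Mucl1 with Ehf, 0.41 for Ehf with Csf1 and 0.12 for Mucl1 with Csf1. Over the 5 groups of each library the values were unlike. In the same order they were 0.67, 0.25 and -0.53 in the naive and 0.98, 0.86 and 0.79 in the papain library. All correlations of Mucl1 rest on group levels that few cells set. Without the 5 richest cells, Mucl1 was at 0.328 in place of 35.8 CPM in naive CD301b-low cDC2s. In naive LCs it was then at 0.577 in place of 29.2 CPM.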

How the data were processed

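Members, gene lists and alternatives were chosen with earlier results of these data known. Reads were processed by the authors with Cell Ranger 3.0.1 (mm10) and Partek, per the labels. Expression was deposited as log2(CPM + 1), scaled to 1000000 per cell. Dividing each CPM by the step of its cell gave UMIs, of which 100% of those up to 50 were whole within 0.02. The deposited numbers of expressed genes and antibody totals are counts, and the former matched the genes above 0 in every cell. Antibody values were deposited by the authors as a natural log, of 1 plus a ratio of count plus 1 to its geometric mean over 12 antibodies. The antibody tag letters are of another kind (sequence), as deposited.

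Group CPM are UMIs summed over cells, divided by all UMIs behind the deposited CPM. Intervals are exact at 95%: Poisson for CPM, Clopper-Pearson for shares, and conditional binomial for ratios, of which no pseudocount was added unless stated; they cover counting error only. Depth ran from 3637 to 57378 UMIs per naive cell and from 2682 to 57150 per papain cell, and single UMIs decide detection. Thinned shares are expected values at 8392 UMIs, the 10th percentile of depth. Lists were counted at 1.5-fold, with 1 CPM added, among genes that reached 10 CPM in either group. Named genes were the members, list genes with at least 10 CPM in CD301b-high cDC2s, the 5 genes most like each member, and Mgl2; Kit, Ets1, Top2a, C1qa, Epcam and the companions of Mucl1-rich cells were named after their values were seen, and not every list gene is reported here. No doublet caller was run. Python 3.11.15, NumPy 2.4.6, SciPy 1.17.1 and pandas 2.3.3 were used. The ratio step was run on simulated Poisson counts, which checks its arithmetic only. Those counts lack the uneven spread of UMIs over cells that Mucl1 had. The 429 naive and 290 papain cells without a class entered no comparison.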

Additional observations from a re-analysis of the deposited data

Results flagged for a closer look

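Some contrasts went in opposite directions in different groups, and the differences between the groups were not tested. For Mucl1 the directions rest on few cells, and counting intervals do not hold for its UMIs. Mucl1 was lower in papain than in naive CD301b-low cDC2s (log2 ratio -0.50) and higher in CD301b-high cDC2s (1.11), with 3 naive and 13 papain CD301b-low cells of at least 10 UMIs (0.456% and 0.884%). Without the 5 richest cells of each library the CD301b-low levels were 0.328 CPM in naive and 12.1 CPM in papain cells. As 8 naive and 44 papain CD301b-low cells held a UMI, this took a larger part of the naive UMIs. No direction is read from it. In LCs Ehf was higher in the papain library (0.56), against -0.82 in CD301b-high cDC2s. In cDC1s Csf1 was lower in the papain library (-0.42), against 1.06 in CD301b-high cDC2s. Mucl1 was lower in naive CD301b-intermediate than CD301b-low cDC2s (-0.35) and higher in papain ones (1.87). Without the 5 richest cells of each class, of 16 and 8 with a UMI, the naive levels were 4.30 and 0.328 CPM. At least 10 UMIs were held by 0.910% and 0.456% of cells, so the naive direction by CPM was not that by cells. Csf1 was lower in CD301b-high cDC2s than in cDC1s in the naive library (-0.42) and higher in the papain library (1.06).

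Some cells with expression values lacked an antibody class, and these also held UMIs of the members. The 429 naive cells of this kind were at 55.2 CPM of Mucl1, 105.8 CPM of Ehf and 41.6 CPM of Csf1. The 290 papain cells were at 83.9 CPM of Mucl1, from 8 cells, and at 29.0 CPM of Ehf and 16.3 CPM of Csf1. Their median depths were 9593 and 6965.5 UMIs.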

How the results depend on the processing

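No paired analysis was possible because each condition is 1 library and the labels give no replicate numbers. Of the 112 alternative values of ratios of CD301b-high cDC2s and of ends of the CD301b ordering, 67 stayed within the counting interval, 44 lay outside it and 1 changed sign.

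Against other DCs, values are log2 ratios for Mucl1, Ehf and Csf1. With 10 CPM added they were 1.15 and 1.47 for Mucl1 and Ehf in naive, and 1.18, 1.02 and 0.84 in papain cells. With equal weight of the other classes they were 1.74 for naive Ehf and 1.76, 1.46 and 1.11 in papain cells. Against the other cDC2s only they were 0.98, 0.96 and 0.40 in naive and 1.02, 0.87 and 0.76 in papain cells. For Mucl1, the mean over cells gave 1.63 in naive cells, leaving out cells with T cell transcripts 1.73 and 1.19, and leaving out the 5 richest cells of each group 0.62 and 1.41.

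Between CD301b-high and CD301b-low cDC2s, tertiles of the CD301b value gave 1.04 and 1.55 for naive Mucl1 and Ehf and 1.33, 1.46 and 1.22 for papain Mucl1, Ehf and Csf1. Means within mRNA clusters reversed naive Mucl1 (-0.53, from 1 cluster, where 1 CD301b-low cell held 234 of 242 UMIs). They gave 1.496 and 0.59 for naive Ehf and Csf1 and 0.46, 0.97 and 1.18 in papain cells. Without the 5 richest cells, naive Ehf was at 1.85, papain Mucl1 at 3.19 and papain Csf1 at 1.88. The papain classes had 300 and 44 cells with a Mucl1 UMI, so a larger part of the low class was left out. For naive Mucl1 this was not run, since 3 UMIs were left in CD301b-low cDC2s. Ordering the cells into 5 bins in place of 10 gave top-to-bottom folds of 4.44 and 2.28 for naive Ehf and Csf1 and of 5.34, 3.99 and 3.504 for papain Mucl1, Ehf and Csf1.

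Between libraries in CD301b-high cDC2s, Ehf was at -0.91 after centring and -0.90 as a mean over cells. Leaving out the 5 richest cells gave 3.64 for Mucl1 and 1.201 for Csf1. For Mucl1 this took a larger part of the naive than of the papain UMIs. Leaving out naive cluster 1 and papain cluster 1, which only share a number, an alternative chosen after seeing the data (as was the expectation of joint detection within classes of depth), gave 3.81 for Mucl1 and -0.92 for Ehf, and reversed Mucl1 in CD301b-low cDC2s (0.31). Mucl1 in LCs reversed as a mean over cells (0.76). The causes were not tested. Of 156 alternative values of levels, 53 lay outside the counting interval, and of 12 of joint detection 2 did.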
